A study of Mus musculus with 7 samples.

Results

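The genes described here encode the AP-1 and BATF family of transcription factors (TFs): Fos, Fosb, Fosl1, Fosl2, Jun, Junb, Jund, Batf, Batf3 and Atf3. They are 10 of the 22225 protein-coding genes of the mm9 annotation. Peaks of PU.1 and of MITF were taken as belonging to a gene when the peak center lay in the gene or within 50 kb of either end. This gave 122 of 76243 PU.1 peaks in myeloid precursors (MPs), 130 of 71941 after 36 h of RANKL and 130 of 77072 in osteoclasts (OCs). For MITF it gave 14 of 5413, 12 of 3540 and 16 of 4443 peaks in the same order. None of the 349 peaks recovered with non-specific IgG lay in the 10 windows, and none of the PU.1 or MITF peaks there overlapped an IgG peak. Such peaks were rare everywhere. Of all coding genes, 1.54% had one in the window, and 4 of the 76243 PU.1 peaks of MPs overlapped one.

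AP-1 is a dimer of bZIP proteins, usually 1 from the Fos group and 1 from the Jun group, that binds a short palindromic DNA element. Fos is required for osteoclast formation, and mice without it have osteopetrosis. BATF and BATF3 pair with Jun proteins and can bind DNA together with the interferon regulatory factors IRF4 and IRF8, and ATF3 is a stress-induced member of the ATF/CREB group. PU.1 is an ETS factor that marks enhancers of the myeloid lineage, and MITF is a basic helix-loop-helix factor that acts with PU.1 in osteoclasts and binds E-boxes.

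MPs were bone marrow myeloid cells of C57BLACK6 mice aged 4 to 6 weeks, grown on plastic in CSF1 (50 ng per mL) for 3 days. The other cells received CSF1 and 100 ng per mL RANKL, the cytokine that drives osteoclast formation, for 36 h or for 72 h, and the latter are the OCs. ChIP-Seq, in which DNA bound by a protein is recovered with an antibody and sequenced, was done for PU.1 and for MITF in all 3 conditions, with 5 µg of antibody, and the IgG control was made in MPs alone. Each condition has 1 library per antibody and no replicate, so every interval and test below covers counting error and compares libraries. Whether cells of several animals were pooled is not given in the sources used here.

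The Peak Score is the number of sequence tags in a peak, scaled to a common library size, and 1 tag was worth 1.7058, 1.4781 and 1.4684 in the PU.1 libraries of MPs, 36 h and OCs and 0.9734 to 1.1418 in the MITF libraries. Tags given below for single sites are not scaled, so a series of tags over conditions can differ in direction from the scores. The lowest listed peak had 6 or 7 tags for PU.1 and 8 to 10 tags for MITF, so a locus without a listed peak may still hold a weaker signal. PU.1 peaks were at most 150 bp wide in MPs and OCs and at most 190 bp at 36 h, and MITF peaks were 150 bp wide in MPs and OCs and 150 to 1387 bp wide at 36 h. For orientation, PU.1 had a median of 16.5, 17.5 and 20.5 peaks at the myeloid genes Csf1r, Itgam, Cd14 and Tnfrsf11a in MPs, 36 h and OCs, against a median of 6 peaks over all coding genes in each.

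The sites on which the results turn are given here as the deposited PU.1 peak intervals of OCs, read from the plus strand of mm9. The 4 Fos sites are shown because they are the PU.1 site called in both RANKL libraries, the pair of sites with MITF in both MPs and OCs, the peak next to the segment the study amplified, and the promoter site. The others are the highest site of Fosl2, Fosb, Junb and Batf and the changed site beside Jun. Positions in kb are distances of the peak center from the annotated start of the gene, with negative values upstream. Capitals mark every match, on either strand, to the AP-1 site TGANTCA, the CRE TGACGTCA, the E-boxes CACGTG and CACATG, the PU.1 core GAGGAAGT and its first 6 letters, GAGGAA, called here the PU box.
Fos -49.80 kb, chr12:86764968-86765118: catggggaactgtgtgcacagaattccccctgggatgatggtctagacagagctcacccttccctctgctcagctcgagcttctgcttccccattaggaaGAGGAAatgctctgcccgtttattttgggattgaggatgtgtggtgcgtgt
Fos -36.18 kb, chr12:86778586-86778736: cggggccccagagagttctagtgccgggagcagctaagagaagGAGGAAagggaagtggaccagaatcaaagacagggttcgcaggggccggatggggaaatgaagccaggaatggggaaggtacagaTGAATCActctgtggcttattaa
Fos -5.07 kb, chr12:86809693-86809843: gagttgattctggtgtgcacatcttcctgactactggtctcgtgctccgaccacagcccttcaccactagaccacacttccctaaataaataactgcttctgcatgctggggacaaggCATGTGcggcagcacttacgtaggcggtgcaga
Fos -0.08 kb, chr12:86814681-86814831: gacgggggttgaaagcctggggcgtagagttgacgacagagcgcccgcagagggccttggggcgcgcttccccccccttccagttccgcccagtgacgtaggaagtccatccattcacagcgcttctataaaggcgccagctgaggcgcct
Fosl2 -23.75 kb, chr5:32415021-32415171: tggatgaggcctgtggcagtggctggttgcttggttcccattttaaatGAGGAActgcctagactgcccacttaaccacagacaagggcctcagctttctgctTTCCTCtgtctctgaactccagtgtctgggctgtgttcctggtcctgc
Fosb -6.61 kb, chr7:19901933-19902083: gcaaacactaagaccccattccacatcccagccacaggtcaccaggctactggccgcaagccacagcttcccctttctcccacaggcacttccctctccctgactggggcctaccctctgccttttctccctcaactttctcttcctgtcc
Jun -1.78 kb, chr4:94720615-94720765: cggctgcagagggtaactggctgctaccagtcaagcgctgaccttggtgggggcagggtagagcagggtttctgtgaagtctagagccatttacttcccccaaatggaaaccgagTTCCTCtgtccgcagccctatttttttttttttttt
Junb -4.09 kb, chr8:87506634-87506784: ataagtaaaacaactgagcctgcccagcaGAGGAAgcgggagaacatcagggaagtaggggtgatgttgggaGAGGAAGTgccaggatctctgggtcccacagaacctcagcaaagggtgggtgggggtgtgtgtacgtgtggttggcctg
Batf 24.18 kb, chr12:87051729-87051879: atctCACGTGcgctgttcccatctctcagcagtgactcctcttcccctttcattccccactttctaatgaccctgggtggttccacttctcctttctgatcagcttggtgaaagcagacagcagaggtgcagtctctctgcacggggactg
Of these 9 intervals, 1 held a match to TGANTCA, Fos at -36.2 kb, and 2 held an E-box, Fos at -5.1 kb and Batf at 24.2 kb. A PU box lay in 5 of them, the sites of Fos at -49.8 and -36.2 kb, Fosl2, Jun and Junb. All 9 were intergenic, and the Fos promoter interval ended 9 bp before the annotated start.

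PU.1 had peaks in the windows of all 10 genes before RANKL was added, as it had for 83.8% of all coding genes. Fos and Fosb were among the genes with the highest summed PU.1 score for their window length. Fos (chr12:86814840-86818223, plus strand), which encodes c-Fos, had 19, 20 and 22 PU.1 peaks in MPs, 36 h and OCs, with summed scores of 1030, 1175 and 1194. Fosb (chr7:19888070-19895394, minus strand), a close relative that can act in its place in several settings, had 14, 17 and 17 peaks, with summed scores of 1013, 1104 and 1098. Per 100 kb of window, the summed score of Fos lay above that of 99.2%, 99.8% and 99.8% of all coding genes. That of Fosb lay above 98.9%, 99.7% and 99.5%. By number of peaks, Fos lay above 95.1%, 96.9% and 97.0% and Fosb above 85.6%, 93.8% and 91.9%.

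Fosl2 (chr5:32438845-32460204, plus strand), which encodes Fra-2 and influences osteoclast size, had 14, 15 and 15 PU.1 peaks and summed scores of 738.7, 823.4 and 806.1. Fosl1 (chr19:5447703-5455945, plus strand), which encodes Fra-1 and is itself a target of c-Fos, had 8, 12 and 9 peaks with summed scores of 385.4, 452.2 and 455.2. Fosl1 thus had the fewest PU.1 peaks of the Fos group in each condition. The window of Fosl1 also holds 10 other coding genes and that of Fosb 7, whereas those of Fos and Jun hold none. By the deposited nearest transcript Fosl1 had 1, 3 and 1 PU.1 peaks and Fosb 3, 3 and 5.

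In the Jun group the totals lay below those of Fos, Fosb and Fosl2. Junb (chr8:87500811-87502617, minus strand), a Jun gene induced early by many stimuli, had 12, 10 and 13 peaks with summed scores of 544.2, 601.5 and 709.2. Jun (chr4:94715725-94718913, minus strand), which encodes the c-Fos partner activated by JNK, had 14, 12 and 8 peaks with summed scores of 424.8, 437.4 and 359.7. Jund (chr8:73221638-73224515, plus strand), the most constantly expressed Jun gene, had 10, 11 and 14 peaks with summed scores of 238.8, 249.8 and 324.4, the lowest of the 10 genes in each library. Jun was the 1 gene of the group with fewer peaks in OCs than in MPs, and the 6 of its sites listed in MPs but not in OCs had at most 14 tags in MPs.

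Batf (chr12:87027619-87050037, plus strand) had 10 PU.1 peaks in each library and summed scores of 641.3, 637.0 and 635.8, the most even of the 10. Batf3 (chr1:192922293-192932822, plus strand), needed for the development of cross-presenting dendritic cells, had 15, 16 and 13 peaks with summed scores of 1017, 768.6 and 876.6. Atf3 (chr1:192994175-193007219, minus strand) had 9, 10 and 12 peaks with summed scores of 743.8, 539.5 and 678.3. Both genes thus had their highest total in MPs and their lowest at 36 h. They lie on chromosome 1 beside each other and share 6 sites, so their totals are not independent.

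**Figure D1:**
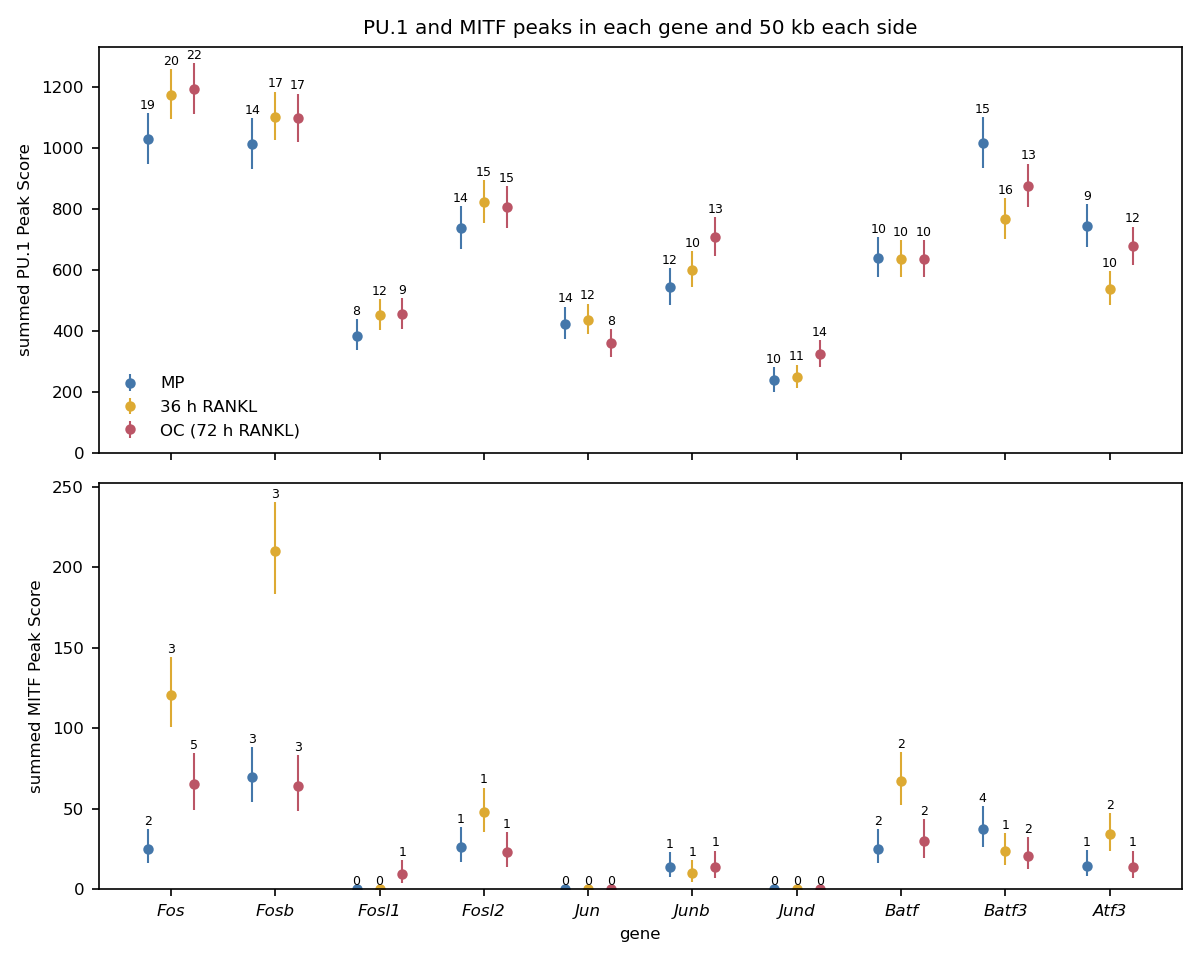
Summed Peak Score of PU.1 (upper) and MITF (lower) in each gene and 50 kb on either side. Points are single libraries of MPs, 36 h and OCs, bars are exact 95% Poisson intervals of the tags and cover counting error, and the number above each point is the number of peaks. Batf3 and Atf3 have their lowest PU.1 total at 36 h, and the MITF totals of Fos, Fosb, Fosl2, Batf and Atf3 are highest at 36 h. Over all coding genes with MITF in both libraries, the median gene had 1.437 times its MP score at 36 h, where MITF peaks could be wider.

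The median over the 10 genes was 571.6, 555.6 and 632.1 PU.1 score per 100 kb in MPs, 36 h and OCs, against 153.8, 142.8 and 158.8 over all coding genes. By this measure Jund had the lowest place, above 61.8%, 66.7% and 72.7% of coding genes. Fos, Fosb and Batf3 stood at the top in this order, and Jund at the bottom, in all 3 libraries. The 95% counting intervals of the summed scores of Fos, Fosb and Batf3 overlapped in MPs, whereas at 36 h and in OCs those of Batf3 lay below the others.

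The summed PU.1 score of the 10 genes was then compared between conditions, relative to the median ratio of all coding genes with a peak in both libraries. A gene was called at a 1.5-fold difference, with no test, since there are no replicates. None of the 10 was called between MPs and 36 h, where 13.4% of all coding genes were (7.10% higher, 6.28% lower). None was called between 36 h and OCs, where 9.45% were (4.52% higher, 4.93% lower), nor between MPs and OCs, where 9.55% were (4.98% higher, 4.57% lower). From MPs to 36 h, 8 of the 10 lay above the median gene, with a median log2 ratio of 0.24, and Batf3 (-0.26) and Atf3 (-0.32) lay below. Their counting intervals, -0.43 to -0.09 and -0.53 to -0.12, did not include 0.

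From MPs to OCs the log2 ratios ran from -0.24 for Jun to 0.45 for Jund. Junb had a log2 ratio of 0.39 (95% counting interval 0.18 to 0.59), Jund 0.45 (0.13 to 0.76) and Fos 0.22 (0.06 to 0.37). Batf3 had a log2 ratio of -0.21 (-0.38 to -0.04). For Fosl2 it was 0.13 (-0.05 to 0.31) and for Batf -0.01 (-0.21 to 0.19), intervals that include no difference. The Fos difference was smaller with other assignments of peaks. Its summed PU.1 scores in MPs and OCs were 516.9 and 522.8 with flanks of 25 kb and 1879.8 and 1957.4 with 100 kb. By the deposited nearest transcript they were 1175.2 and 1183.5.

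Peaks of the 3 PU.1 lists merged into 168 sites at the 10 genes, of which 120 (71.4%) were intergenic, 33 (19.6%) intronic and 15 (8.93%) exonic. A peak was listed in all 3 conditions at 89 of them (53.0%, 95% Wilson interval 45.4% to 60.4%), and 50.5% of all PU.1 sites of the genome were of this kind. Batf had the largest such share, 9 of 11 sites, and Jund the smallest, 5 of 18. All 25 Fos sites and 14 of the 15 Jun sites were intergenic, and the remaining Jun site lay in the exon of the gene itself.

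Of the 168 sites, 8 lay within 1 kb of the start of an annotated transcript of the gene, among them a Jund site 1.7 kb from the gene start, and those of Fos, Junb and Batf had a peak in every library. The Fos promoter site (-0.1 kb) had 15, 35 and 31 PU.1 tags in MPs, 36 h and OCs. The Junb promoter site (-0.1 kb) had 19, 38 and 39 tags. At both, MPs had the fewest tags, and by the exact binomial test used for single sites neither difference from MPs to 36 h was called (adjusted p = 0.219 and 0.329). The Batf site in its first intron (0.4 kb) had 12, 11 and 20 tags. The other 5 promoter sites were listed in 1 library each, with 6 tags at Fosl2 and Jund and 7 at Fosl1 in MPs, and 7 tags at Fosb and 12 at Atf3 in OCs.

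The highest PU.1 site of Fosl2 stood at -23.7 kb and had 167, 193 and 169 tags in MPs, 36 h and OCs, which ranked it 183rd, 67th and 181st in the lists. The highest site of Fosb, at -6.6 kb, had 146, 173 and 183 tags and ranked 477th, 155th and 101st. The highest of Junb, at -4.1 kb, had 100, 132 and 139 tags. As scores, the series were 284.9, 285.3 and 248.2 for Fosl2, 249.0, 255.7 and 268.7 for Fosb and 170.6, 195.1 and 204.1 for Junb. None of these 3 sites was called changed in any comparison of libraries by the binomial test.

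For Batf the highest site lay at 24.2 kb, past the end of the gene, with 111, 118 and 107 tags. Batf3 had its highest at 24.6 kb, in the stretch it shares with Atf3, with 116, 84 and 111 tags. Atf3 itself had its highest at -14.7 kb, with 135, 91 and 113 tags. The last had a log2 ratio of -0.65 from MPs to 36 h (95% counting interval -1.05 to -0.26), and was not called (exact binomial test, adjusted p = 0.0569). As scores, the series were 189.3, 174.4 and 157.1 for Batf, 197.9, 124.2 and 163.0 for Batf3 and 230.3, 134.5 and 165.9 for Atf3.

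The highest site of Fosl1, at -39.1 kb in an intron of 4930481A15Rik, had 73, 71 and 83 tags. Jun had its highest site at -31.9 kb in MPs and 36 h and at 1.7 kb, in its own exon, in OCs. The exon site had 22, 45 and 61 tags, with a log2 ratio of 1.28 from MPs to OCs (0.55 to 2.05) that was not called (exact binomial test, adjusted p = 0.0734). Jund had its highest at -14.8 kb in MPs and 36 h (26 and 38 tags) and at -2.4 kb in OCs (43 tags).

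Single sites were compared by an exact two-sided binomial test on the tags of overlapping peaks of a pair of libraries, against the median ratio of all such pairs, with Benjamini-Hochberg adjustment over the whole genome. A site counted as called when its ratio differed 2-fold or more from that of the median pair and its adjusted p was under 0.05. From MPs to 36 h, 4 of 99 PU.1 pairs at the 10 genes were called, 2 higher and 2 lower, against 1.05% of all pairs (0.341% higher, 0.712% lower). From MPs to OCs 1 of 100 was called, and it was higher, against 0.156% of all pairs (0.0682% higher, 0.0882% lower). Pairs at the 10 genes had more tags than all pairs. The medians were 48 against 38 from MPs to 36 h and 55 against 39 from MPs to OCs. A given ratio is called more easily with more tags, and the shares were not matched for this. Between 36 h and OCs the exact binomial test called 0 of 103, against 0.0707% of all (0.0224% higher, 0.0483% lower), with 8 of the 103 at an unadjusted p under 0.05 (6.45% of all pairs).

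The Fos site at -49.8 kb had 43 PU.1 tags in MPs, 132 at 36 h and 124 in OCs. Both RANKL libraries were above MPs, with log2 ratios of 1.54 at 36 h (95% counting interval 1.03 to 2.07, exact binomial test, adjusted p = 1.34e-06) and 1.34 in OCs (0.82 to 1.87, adjusted p = 3.66e-04). Its rank among PU.1 peaks was 11789th in MPs, 740th at 36 h and 1223rd in OCs. It was the highest PU.1 site of Fos in both RANKL libraries, whereas in MPs that was the site at -5.1 kb. The -49.8 kb site lies just inside the 50 kb edge of the window, and flanks of 25 kb leave it out. By the deposited nearest transcript Fos had 1, 2 and 4 MITF peaks in MPs, 36 h and OCs, without the peak at this site. Their summed scores were 15.6, 60.3 and 51.3.

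Other high Fos sites were not called. The site at -36.2 kb, which holds the match to TGANTCA shown above, had 93, 107 and 87 PU.1 tags. The site at -5.1 kb had 105, 114 and 103 tags. From MPs to OCs their log2 ratios were -0.29 (-0.73 to 0.15) and -0.22 (-0.63 to 0.19), intervals that lie wholly below that of the -49.8 kb site.

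**Figure D2:**
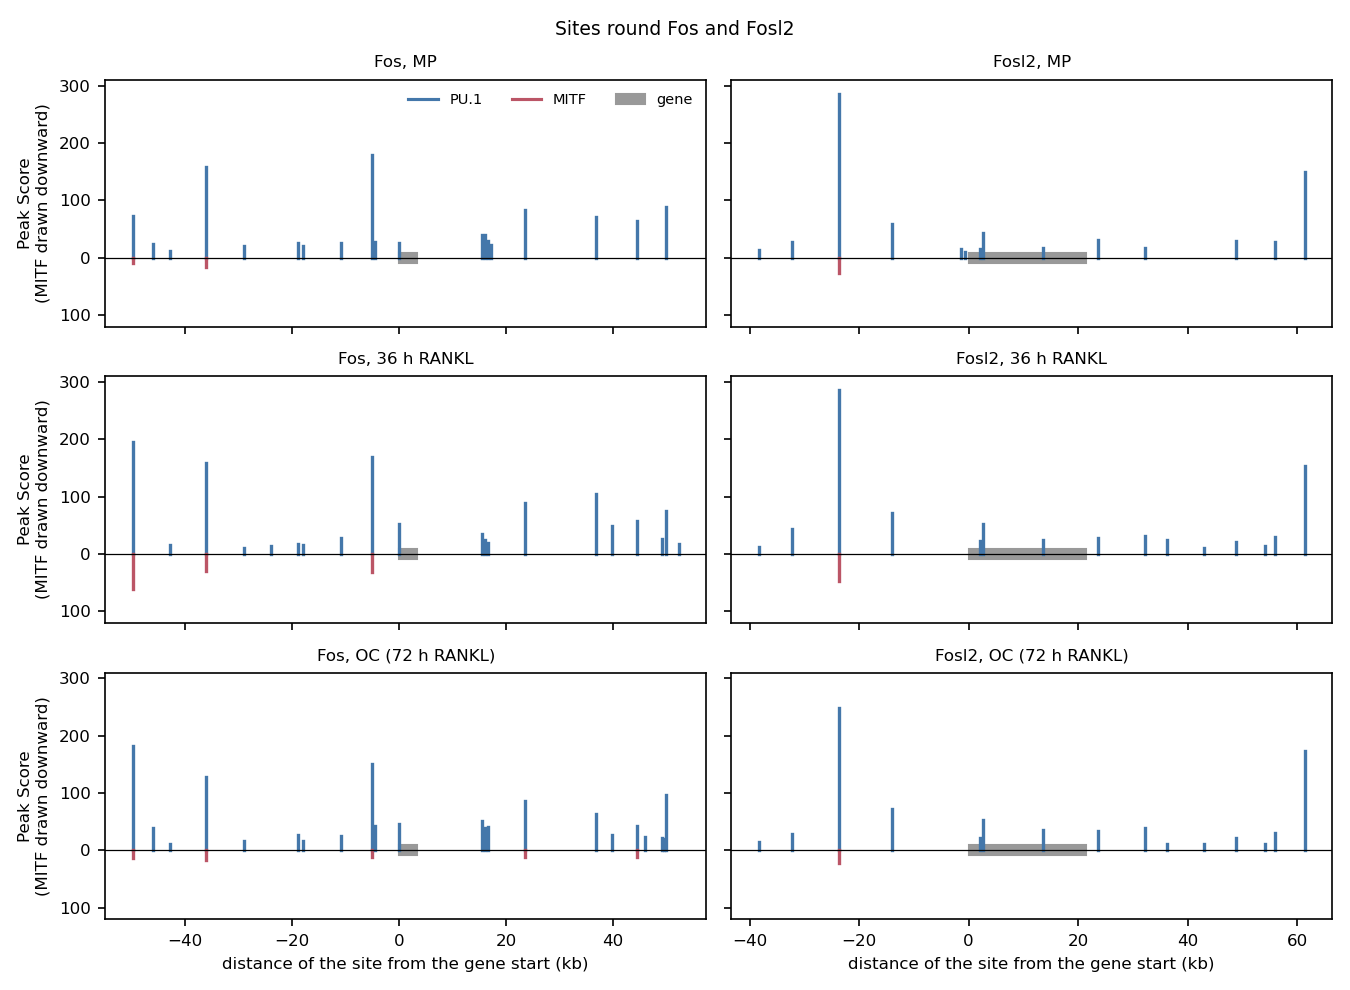
PU.1 (upward) and MITF (downward) Peak Scores of the sites round Fos (left) and Fosl2 (right) in MPs, 36 h and OCs, plotted by distance from the start of the gene, which is drawn as a gray bar. The Fos site at -49.8 kb is higher in both RANKL libraries than in MPs, and the Fosl2 site at -23.7 kb is the highest in all 3.

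The other PU.1 sites called from MPs to 36 h differed less in OCs. A Fosb site at 33.0 kb, in an exon of Ppm1n, had 18, 48 and 32 tags, with a log2 ratio of 1.33 at 36 h (exact binomial test, adjusted p = 0.0417). The Jun site at -1.8 kb, an intergenic one whose sequence is given above, had 33, 11 and 26 tags, with a log2 ratio of -1.67 (exact binomial test, adjusted p = 0.0384). An intergenic Batf3 site at 11.7 kb, just past the end of the gene, had 74, 36 and 58 tags, with a log2 ratio of -1.12 (exact binomial test, adjusted p = 0.0138). At each of these the OC value lay between those of MPs and 36 h. The PU.1 peaks of these pairs were 150 bp wide in MPs and 190 bp at 36 h, so that scaling tags to the narrower peak lowered the tags of all pairs alike. With these fewer tags the Fos and Batf3 calls held, and those of Fosb (log2 ratio 1.33, adjusted p = 0.0912) and Jun (-1.62, adjusted p = 0.115) did not, by the exact binomial test.

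MITF was listed at 20 sites of the 10 genes, all of them also PU.1 sites, and at none within 50 kb of Jun or Jund. Of all coding genes, at most 32.1% had a MITF peak in the window in any library, the share in MPs. A window without one was thus the more common state of a gene. With flanks of 100 kb Jun had 1 MITF peak in each library, with scores of 37.4, 90.5 and 34.3, and Jund 3, 3 and 1. Fos had 2, 3 and 5 MITF peaks in MPs, 36 h and OCs, with summed MITF scores of 24.9, 120.6 and 65.0. Fosb had 3 in each, with 69.6, 210.2 and 64.0. Fosl2 had the -23.7 kb peak alone in each, with 26.0, 47.7 and 22.8, and Fosl1 had 1 peak of 8 tags in OCs.

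Junb had its -4.1 kb peak in each library, with MITF scores of 13.5, 9.7 and 13.7. Batf had 2 MITF peaks in each, with summed scores of 24.9, 67.2 and 29.7. Batf3 had 4, 1 and 2, with 37.2, 23.4 and 20.5, and Atf3 1, 2 and 1, with 14.5, 34.1 and 13.7. Fos was thus the gene whose number of MITF peaks was larger in each later condition, and Batf3 had the most MITF peaks of the 10 genes in MPs. Of the 20 MITF sites 9 were listed in all 3 conditions (45.0%, Wilson interval 25.8% to 65.8%), against 26.1% of all MITF sites.

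From MPs to OCs, 2 of the 7 genes with MITF in both libraries were past 1.5-fold of the median gene, where 37.8% of all coding genes were (17.8% higher, the others lower). Fos was higher, with a log2 ratio of 1.57 (95% counting interval 0.86 to 2.33), and Batf3 lower, with -0.67 (-1.58 to 0.18). From MPs to 36 h it was 6 of 7, against 55.1% of all (26.7% higher, 28.4% lower), with Fos (1.75), Fosb (1.07), Batf (0.91) and Atf3 (0.71) higher and Junb (-1.0) and Batf3 (-1.19) lower. The intervals of Atf3 (-0.23 to 1.71) and Junb (-2.34 to 0.31) included 0, and Atf3 turned to -1.0 with flanks of 25 kb and -1.05 with 100 kb. Between 36 h and OCs 3 of 7 were past the limit, against 53.8% of all, with Junb (1.32) and Batf3 (0.64) higher (32.6% of all) and Fosb (-0.89) lower (21.2%). The intervals of Junb (-0.02 to 2.69) and Batf3 (-0.33 to 1.58) included 0, and Batf3 turned to -0.19 with scores as deposited. At Fos, the sites at -5.1, 23.6 and 44.5 kb each had 10 MITF tags in OCs, near the lowest listed value, and no listed peak in MPs. The sites listed in both, at -49.8 and -36.2 kb, had 9 and 12 and 15 and 15 tags and were not called, and with peaks of at least 2 times the lowest score Fos had no MITF peak in MPs or in OCs.

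The matched MITF sites were tested as those of PU.1. From MPs to 36 h 3 of 9 were called, all higher, against 15.2% of all MITF pairs (9.80% higher). The median pair had 71 tags among the 9 and 44 over all. The Fos site at -49.8 kb had 9, 62 and 12 MITF tags in MPs, 36 h and OCs, with a log2 ratio of 1.99 at 36 h relative to the median pair (exact binomial test, adjusted p = 2.88e-04). A Fosb site at -47.3 kb, in an exon of Cd3eap, had 20, 111 and 21 tags, with a log2 ratio of 1.68 (exact binomial test, adjusted p = 4.09e-06). The Batf site at 24.2 kb had 14, 58 and 12 tags, with a log2 ratio of 1.25 (exact binomial test, adjusted p = 0.0179).

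At these 3 sites the 36 h value stood apart and MPs and OCs were close. The PU.1 tags at the Fosb site were 130, 127 and 132 and at the Batf site 111, 118 and 107, without a call. Between 36 h and OCs 2 of 10 MITF pairs were called, both lower, against 9.66% of all (2.98% higher, 6.68% lower). They were the Fos site at -49.8 kb (log2 ratio -1.29, exact binomial test, adjusted p = 0.0283) and the Fosb site at -47.3 kb (-1.32, adjusted p = 0.00103). By the same test, between MPs and OCs none of 12 was called, none at an unadjusted p under 0.05 (3.23% of all pairs), and none of the 2844 pairs of the genome was called.

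The MITF peaks of these sites were 220 bp (Fos), 248 bp (Fosb) and 224 bp (Batf) wide at 36 h and 150 bp in MPs and OCs, and over the genome the median pair had 1.74 times the MITF tags at 36 h that it had in MPs. With tags scaled to the narrower peak, the Fos and Fosb sites were still called from MPs to 36 h, the Batf site was not (adjusted p = 0.225), and no site was called between 36 h and OCs (exact binomial test, adjusted p = 0.321 for Fos and 0.226 for Fosb). The part of peak calling in the 36 h values was not tested.

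**Figure D3:**
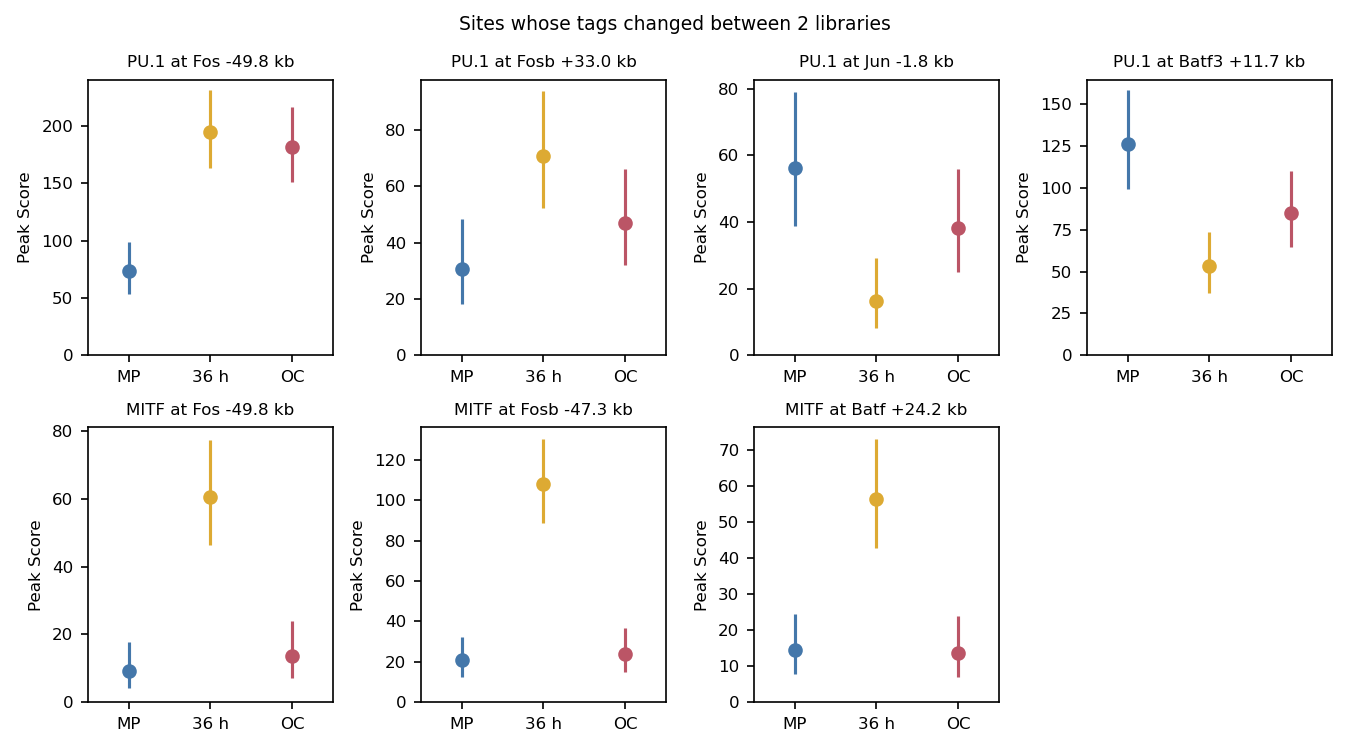
Peak Scores in MPs, 36 h and OCs at the 4 PU.1 sites (upper) and the 3 MITF sites (lower) called changed in at least 1 comparison, with exact 95% Poisson intervals that cover counting error. PU.1 at Fos -49.8 kb stays high in OCs, and at the MITF sites the value of OCs lies near that of MPs. The 36 h peaks are wider than the others.

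The highest site of Fosb, at -6.6 kb, had 37, 95 and 24 MITF tags. Its log2 ratio between 36 h and OCs, -0.90 (-1.61 to -0.25), had an adjusted p of 0.0423 in the exact binomial test and missed the 2-fold limit. The Fosl2 site at -23.7 kb had 25, 49 and 20 MITF tags, and its ratio from MPs to 36 h was near that of the median pair (log2 0.17, -0.55 to 0.93). A high PU.1 site of Fosl2 on the other side of the gene, at 61.4 kb, had 88, 104 and 118 PU.1 tags and no listed MITF peak in any condition.

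MITF was found where PU.1 was high. Of the PU.1 peaks at the 10 genes, 14 of 122 (11.5%, Wilson interval 6.96% to 18.3%) had a MITF peak in MPs, 12 of 130 (9.23%, 5.36% to 15.4%) at 36 h and 16 of 130 (12.3%, 7.72% to 19.1%) in OCs, against 6.95%, 4.62% and 5.38% of all PU.1 peaks. With peaks of at least 2 times the lowest score the share was 3.37% in MPs and 3.19% in OCs, against 2.67% and 2.05% of all. Among PU.1 peaks with a score of at least 100 it was 8 of 16, 11 of 18 and 12 of 17, against 55.6%, 44.7% and 45.6% of all. Among those with a score of 50 to 100 it was 6 of 23, 1 of 29 and 3 of 30, against 8.66%, 6.38% and 8.24% of all. Among those with a score under 50 it was 0 of 83 (Wilson interval up to 4.42%), 0 of 83 and 1 of 83, against 0.238%, 0.221% and 0.256% of all, and the exception was the Fos site at 44.5 kb, with 29 PU.1 tags.

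The median PU.1 score in OCs was 148.3 for peaks with MITF at the 10 genes and 28.6 for peaks without. The highest PU.1 peak of the gene carried MITF at 5 genes in MPs, 6 at 36 h and 7 in OCs, against 32.3%, 22.7% and 26.0% of all coding genes with a PU.1 peak. Fosb, Fosl2, Junb and Batf did so in every condition. In the other direction, 97.9%, 93.8% and 93.3% of all MITF peaks of the genome lay on a PU.1 peak, as did every MITF peak of the 10 genes.

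**Figure D4:**
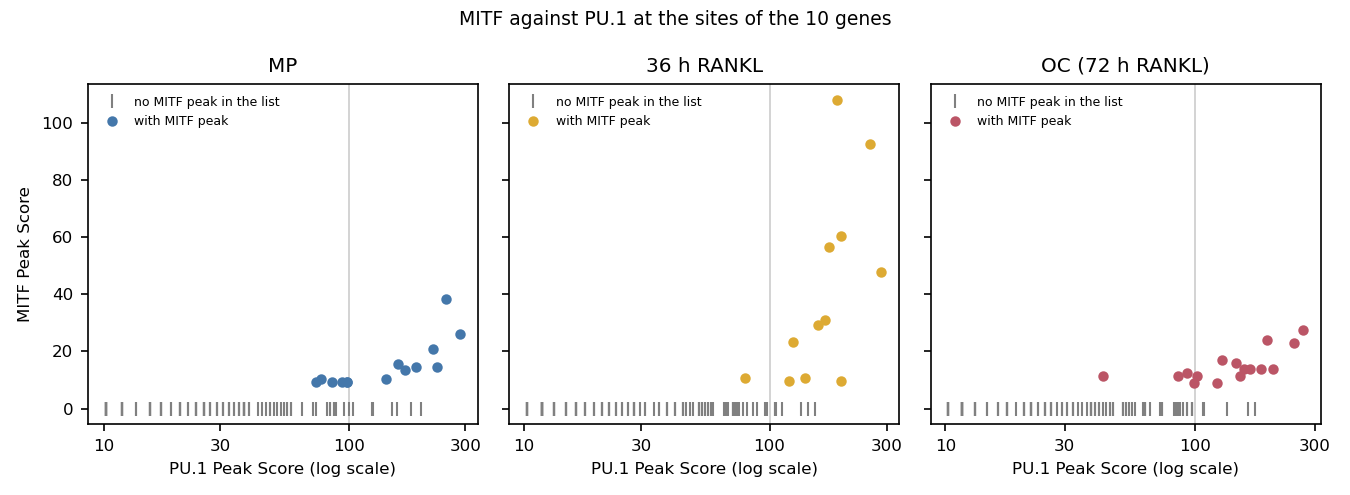
MITF Peak Score against PU.1 Peak Score (log scale) at the PU.1 sites of the 10 genes in MPs, 36 h and OCs. Circles are sites with a MITF peak, ticks at 0 are sites without a listed one, and the gray line marks a PU.1 score of 100. Below a PU.1 score of 50 there is 1 circle, in OCs.

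The study amplified segments of Fos, Fosl2 and Junb by ChIP-qPCR, and its primers matched mm9 at chr12:86809599-86809687, chr5:32415085-32415163 and chr8:87506609-87506699. The Fos segment, at -5.2 kb, overlapped a PU.1 peak of 105 tags in MPs and of 114 at 36 h, and lay 6 bp from the one of 103 tags in OCs. MITF had no listed peak there in MPs, 32 tags at 36 h and 10 in OCs. The Fosl2 and Junb segments lay on the sites at -23.7 and -4.1 kb and overlapped a PU.1 and a MITF peak in all 3 conditions. Junb had 13, 10 and 12 MITF tags there, values at or near the lowest of the lists.

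Letters of known binding elements were counted within 100 bp of the PU.1 peak centers. The AP-1 site was found in 10 of 122 peaks of the 10 genes in MPs (8.20%, Wilson interval 4.51% to 14.4%), 11 of 130 at 36 h (8.46%, 4.79% to 14.5%) and 7 of 130 in OCs (5.38%, 2.63% to 10.7%), against 11.5%, 13.1% and 10.5% of all PU.1 peaks. The sites with this element included Fos at -36.2 and 36.8 kb, Fosl2 at -32.2 and -0.7 kb and 3 sites of Jun. The searched letters TGANTCA accept any base at N, and the match at Fos -36.2 kb reads TGAATCA. AP-1 proteins can regulate their own genes, but their binding to these sites was not measured here. In OCs the CRE was found in 1 peak, at 46.6 kb from Jund (0.769%, against 0.388% of all), and the BATF-IRF composite, an AP-1 site next to or spaced from GAAA, in 0 of 130 (Wilson interval up to 2.87%, against 0.525%).

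The PU.1 core was found in 19 of 130 OC peaks (14.6%, 9.56% to 21.7%), against 22.8% of all. The PU box was found in 60 of 130 (46.2%, 37.8% to 54.7%), against 58.7% of all, and an E-box in 18 of 130 (13.8%, 8.94% to 20.8%), against 17.2%. The shares of the 10 genes were thus below those of all PU.1 peaks for the AP-1 site, the PU.1 core, the PU box and the E-box, and in OCs the intervals of the PU.1 core and the PU box did not reach the share of all peaks.

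PU.1 peaks were also stitched at HOMER's default distance and the stitched regions ranked by summed score. The cut was set where the curve of ranked scores, with its axes scaled alike, ran parallel to the diagonal. This gave 2380, 1870 and 2332 superenhancer-like clusters in MPs, 36 h and OCs. The number in OCs is larger than that of the superenhancers the paper reports there, so a cluster here need not be one of them. Such a cluster reached the window of 9, 8 and 9 of the 10 genes, against 24.7%, 21.7% and 25.8% of coding genes, and touched the gene itself at 5, 6 and 5, against 11.8%, 10.6% and 12.5%. Fosl1 had none in any condition and Batf none at 36 h. Those at Fosb, Fosl2, Jun, Junb and Atf3 touched the gene in all 3.

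The Fos cluster upstream of the gene held 14, 13 and 13 peaks over 56.0, 56.1 and 56.0 kb, with summed scores of 702.8, 833.7 and 812.0, and ranked 426th, 144th and 244th. It reached the start of Fos at 36 h and ended just short of it in MPs and OCs. The Fosl2 cluster spanned 91.6 kb with 13 peaks in MPs (rank 246) and was split in 2 at 36 h (ranks 195 and 1041) and in OCs (ranks 529 and 1142). The Jun cluster ranked 660th, 387th and 2272nd, and in OCs it held 7 peaks where it had 12 in MPs.

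The genes whose 6 totals, as log2 score per 100 kb, lay nearest to those of Fos were Gp1ba (distance 0.68), Slc25a11 (0.69) and N4bp1 (0.92), and the totals of the first pair are nearly the same. For Fosl2 they were Isca2 (0.31), 4933407C03Rik (0.34) and Asphd1 (0.35). These distances use 6 libraries and describe the totals.

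Genes linked to AP-1 were read the same way between MPs and OCs. Of 20 further bZIP genes, such as Jdp2, which lies in the window of Batf, none was past 1.5-fold for PU.1 and none of the 6 with MITF in both libraries. Of 16 genes for kinases and other inputs to AP-1, none was past the limit for PU.1, and for MITF 1 of 7 was higher, Srf (log2 ratio 0.63), and 1 lower, Tnfrsf11a, the RANKL receptor (-1.15), which has an IgG peak in its window. Of all coding genes, 37.8% were past the limit for MITF (17.8% higher) and 9.55% for PU.1. Srf encodes the serum response factor, which acts on the Fos promoter. In MPs and OCs Srf had 1 and 1 MITF peaks and Tnfrsf11a 2 and 1.

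Of 14 genes regulated through AP-1, Calcr, the calcitonin receptor, was higher for PU.1 (log2 ratio 0.79), with 1 peak of score 23.9 in MPs and 41.1 in OCs. For MITF 2 of 7 were higher, Il1b (0.94) and the protease gene Ctsk (0.91), and 2 lower, the chemokine gene Ccl2 (-1.64) and Tnf (-0.83), again against 37.8% of all coding genes past the limit. These totals rest on few MITF peaks. In MPs and OCs Il1b had 2 and 2, Ctsk 1 and 3, Ccl2 6 and 2 and Tnf 2 and 1. As given above, no matched MITF pair of the genome was called between these libraries. Of the IRF partners of BATF, neither Irf4 nor Irf8 was past the limit for PU.1, and Irf8 had MITF scores of 22.9, 67.2 and 10.3 in MPs, 36 h and OCs (log2 ratio -0.96 from MPs to OCs).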

How the data were processed

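Occupancy was measured by ChIP-Seq in 7 libraries, assigned to their conditions by their labels. The authors mapped reads with Bowtie2 to mm9 and called peaks with HOMER, after CASAVA 1.8 per the labels. Further versions and peak calling settings are not given in the sources used here. The authors deposited 1 peak list per library with a Peak Score, a signal of tags scaled to a common library size (10000000 tags by HOMER's default, assumed), and the nearest RefSeq transcript. Scores were whole multiples of the worth of 1 tag to within 0.0511, and tags were recovered by division. This limits precision to counting error, since there are no replicates.

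The 10 genes, the other gene lists and the tests were chosen with earlier results of these data known. Genes came from the GENCODE annotation of mm9, and sequences from the mm9 genome. Named sites were each gene's highest PU.1 and MITF sites, every called site, every promoter site and the study's amplified segments. From the 4 lists of AP-1 related genes, those past 1.5-fold between MPs and OCs were named. Sites were matched by at least 1 bp of overlap and tested by an exact binomial test. The test was also run on tags simulated with counting error alone, which leaves out variation between libraries and unlike peak widths. The 6-letter PU box and the scaling to the narrower peak were added after the data had been seen. Python 3.11.15, numpy 2.4.6, scipy 1.17.1 and matplotlib 3.10.9 were used. A list of markers of other cell types is not reported here.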

Additional observations from a re-analysis of the deposited data

How the results depend on the processing

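No paired analysis was possible because each condition has 1 library per antibody, and for the same reason no replicate could be left out. Peaks at the 10 genes in MPs, 36 h and OCs numbered 74, 77 and 77 (PU.1) and 7, 7 and 7 (MITF) with flanks of 25 kb, and 227, 224 and 231 (PU.1) with 100 kb, where MITF in MPs had 22. With peaks of at least 2 times the lowest score they were 85 for PU.1 at 36 h and 3 for MITF in MPs and in OCs. With lists of equal length MITF had 7 in MPs. Assignment by the deposited nearest transcript and removal of IgG-overlapping peaks kept these counts, pooled over the 10 genes, within 1.5 times. Single genes moved more. By nearest transcript Fosb had 3, 3 and 5 PU.1 peaks and Fosl1 1, 3 and 1, whereas Fos had 20, 21 and 23.

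The number of sites called at the 10 genes moved 6 times. With the stricter score threshold, which left 6 of the 10 called differences with a pair to test and kept all 6, it was 2 for PU.1 from MPs to OCs, 1 for MITF from MPs to 36 h and 1 for MITF from 36 h to OCs. Tested against the ratio of library sizes it was 6 for MITF from 36 h to OCs. With tags scaled to the narrower peak, it was 2 for PU.1 from MPs to 36 h and 0 for MITF from 36 h to OCs. The Fosb site at 33.0 kb was not called against the ratio of library sizes (exact binomial test, adjusted p = 0.0619).

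Of the 10 genes, the number past the fold limit for PU.1 was 0 except with flanks of 25 kb, where Fosl1 made it 1 from MPs to 36 h. For MITF it was 5 between 36 h and OCs with scores as deposited, 0 between MPs and OCs with 25 kb, and 7 between 36 h and OCs and 4 between MPs and OCs with 100 kb. With the stricter threshold it was 1, 1 and 0 (MPs to 36 h, 36 h to OCs, MPs to OCs) and with a 2-fold limit 3, 1 and 1. The direction turned for Batf3 between 36 h and OCs with scores as deposited (-0.19), and for Atf3 from MPs to 36 h with flanks of 25 kb (-1.0) and 100 kb (-1.05).

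The share of PU.1 peaks with MITF was 3.37% in MPs and 3.19% in OCs with the stricter threshold. Within 50 bp the AP-1 site was found in 2.31% and an E-box in 6.92% of OC peaks, the CRE in 0% with the stricter threshold, and the PU box in place of the core in 46.2%. The cause of these moves was not tested. The numbers of genes with a superenhancer-like cluster stayed within 1.5 times in both alternatives.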
